A study of Aspergillus niger with 9 samples.

Results

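Through 9 RNA libraries of the filamentous fungus Aspergillus niger, 6 genes were followed: 3 annotated as transcription factors and 3 that lie next to one of them. They are 6 of the 11187 genes in the count table, and all 6 passed the filter on low counts. ATCC64974_80420 and ATCC64974_87970 were chosen by their read counts, which were close to 0 in the libraries of the deletion strain ΔaslA. ATCC64974_22400 and the adjacent ATCC64974_22370, ATCC64974_22380 and ATCC64974_22390 were selected on their low counts in replicate 1 of the deletion strain ΔaslB. The values that chose them are given below as a description, without a test.

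The study concerns transcription factors that act downstream of FlbA. Poly(A) RNA came from vegetative mycelium of ΔaslA, of ΔaslB and of MA234.1, the background in which both deletions were made, with 3 biological replicates of each strain. Cultures were shaken in liquid, and the protocol names a 16 h culture in TM-G, a medium with 25 mM glucose that also holds casamino acids (0.2%) and yeast extract (0.5%), and a 4 h culture in MM-X, with 25 mM xylose. The labels do not say whether a given library came from one of these media or from both in turn, do not describe the genotype of MA234.1 itself, and do not say which gene identifier aslA or aslB is. A link between any of the 6 genes and those names is therefore not established here.

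FlbA is a regulator of G protein signalling: it switches off a heterotrimeric G protein that promotes hyphal growth, and in aspergilli it is needed for asexual development. C2H2 zinc finger proteins bind DNA through short fingers that each hold a zinc ion. Fungal-specific transcription factors usually pair a zinc cluster with a large middle domain, and many of them control genes of nutrient use or secondary metabolism.

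Total counts ran from 11321882 to 19110786 per library. The ΔaslB libraries stood apart from each other. Over the 9568 genes tested, correlations of ΔaslB replicate 2 lay between 0.777 and 0.798 for ΔaslA libraries, against 0.970 or more for MA234.1 libraries. Replicate 3 had 0.967 or more for ΔaslA, against no more than 0.777 for MA234.1, and replicate 1 had 0.922 to 0.941 for ΔaslA, against 0.798 to 0.803 for MA234.1. Genes are not independent replicates in such a correlation. Values of the ΔaslB strain are therefore given library by library, and each test says which of its libraries were left out.

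ATCC64974_80420 lies on contig 13, from 2178408 to 2179452 on the plus strand, and its product holds 3 matches to the C2H2 zinc finger family. Its closest SwissProt protein is mouse GLIS3, a zinc finger transcription factor, which names the family and not a function in the fungus. In the authors' deposited table it stood at 1.44 FPKM in ΔaslA, at 223 FPKM in ΔaslB and at 761 FPKM in MA234.1. FPKM is scaled by transcript length, so it can be set against other genes: in MA234.1 this gene ranked 8 of the 495 annotated transcription factors, whose median was 13.2 FPKM, and in ΔaslA it ranked 383 of 495.

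The 3 ΔaslA libraries held 3, 33 and 5 reads of ATCC64974_80420, against 5539, 7159 and 6924 reads in the 3 MA234.1 libraries. As CPM, counts scaled to library size by TMM, these were 0.222, 1.74 and 0.389 CPM in ΔaslA and 508, 534 and 531 CPM in MA234.1. Replicate 2 of ΔaslA was the highest of its strain, and it was still at 0.331% of the MA234.1 libraries (95% exact interval 0.228 to 0.465%, counting error only). In bulk RNA, a low level in all hyphae and a normal level in few of them cannot be told apart.

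The ΔaslB libraries held 1285, 5292 and 512 reads of the same gene in replicates 1 to 3, which is 92.6, 321 and 42.5 CPM. Each of these lay above every ΔaslA library and below every MA234.1 library. Replicate 3 was at 8.10% of the MA234.1 libraries (95% exact interval 7.40 to 8.84%) and replicate 1 at 17.6% (16.6 to 18.6%). The choice of the gene did not use ΔaslB, so the comparison with MA234.1 is a test: the log2 fold change was -1.79 (SE 0.77, edgeR adjusted p = 0.156). Without ΔaslB replicate 2 it was -2.95 (SE 0.51, edgeR adjusted p = 0.00113), in a fit that called 52.8% of the genes it tested. Replicate 2 was the ΔaslB library nearest to MA234.1, for this gene and by correlation over all genes tested. Leaving it out therefore favours a difference, and the lower p does not decide whether the strains differ.

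ATCC64974_87970 lies on contig 16, from 353739 to 355717 on the minus strand. It is annotated as a fungal-specific transcription factor through the domain PF11951 (Fungal_trans_2), which 93 genes of the table share, and it has no SwissProt match. The authors' deposited table gives it 0.371 FPKM in ΔaslA, 33.1 FPKM in ΔaslB and 114 FPKM in MA234.1. That placed it 44 of 495 transcription factors in MA234.1 and 462 of 495 in ΔaslA.

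Its reads numbered 7, 14 and 2 in the ΔaslA libraries, against 1693, 1983 and 1983 in the MA234.1 libraries. In CPM these were 0.518, 0.737 and 0.155 in ΔaslA and 155, 148 and 152 in MA234.1. Summed over the strain, ΔaslA was at 0.334% of MA234.1 (95% exact interval 0.212 to 0.502%). The ΔaslB libraries spread over the whole range between the other strains. Replicates 1 to 3 of ΔaslB held 149, 2112 and 6 reads, or 10.7, 128 and 0.499 CPM, so replicate 3 lay inside the ΔaslA range and replicate 2 below the MA234.1 range.

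Against MA234.1 the log2 fold change of ATCC64974_87970 in ΔaslB was -1.71 (SE 1.26, edgeR adjusted p = 0.353). Without ΔaslB replicate 2 it was -4.73 (SE 0.86, edgeR adjusted p = 0.00157), where again 52.8% of genes were called. The same limit holds, since replicate 2 was again the ΔaslB library nearest to MA234.1. edgeR thus called 0 of these 2 genes between ΔaslB and MA234.1 with all libraries, and 0% of all genes tested. At an unadjusted p under 0.05 it was 1 of the 2, ATCC64974_80420, against 2943 of all 9568 genes tested. DESeq2 called 1796 genes in all and neither of these 2. Its adjusted p was 0.0797 for ATCC64974_80420, and it gave none for ATCC64974_87970. In both genes all ΔaslB libraries lay below all MA234.1 libraries, as in 22.8% of all genes tested; 36.8% did not overlap in either direction.

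**Figure D1:**
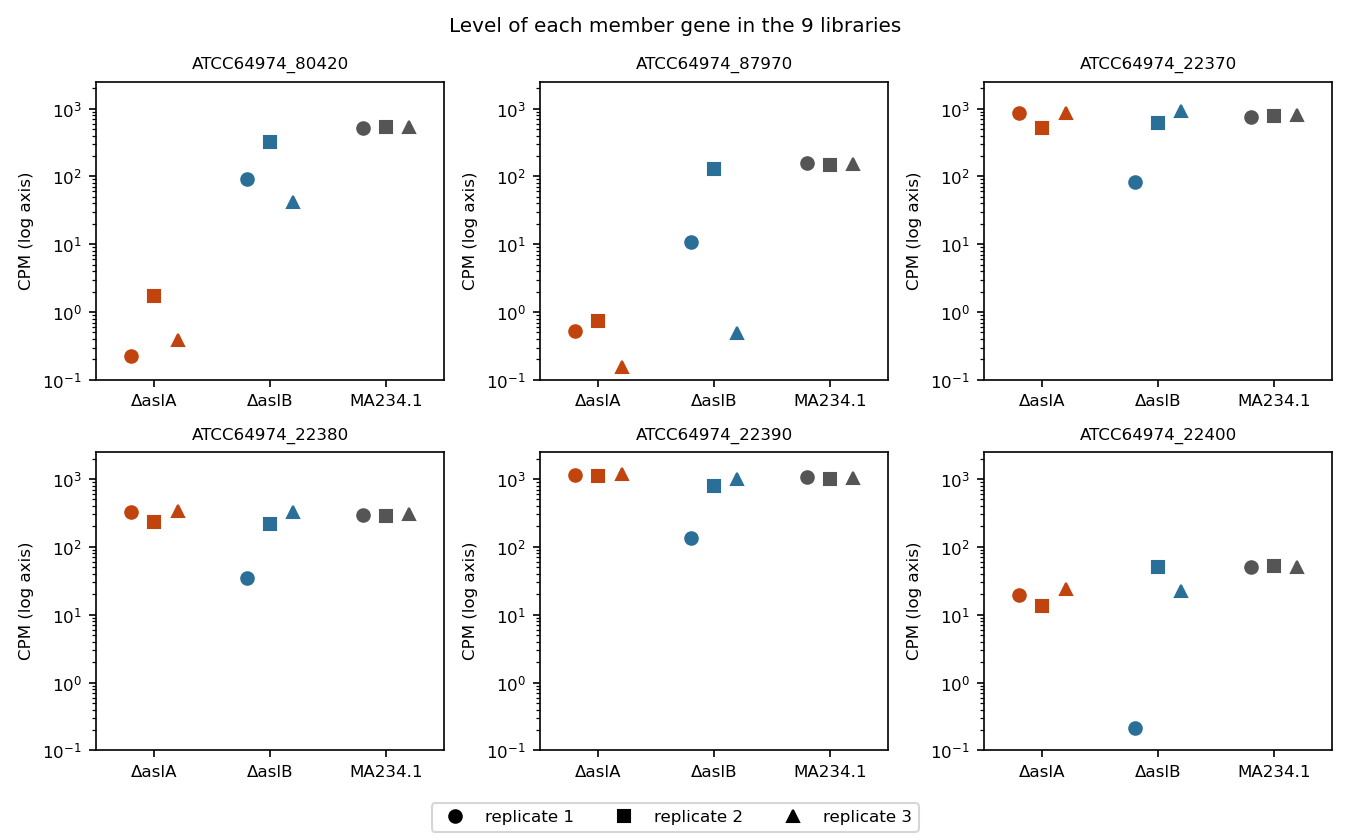
CPM (log axis) of each of the 6 genes in the libraries of ΔaslA, ΔaslB and MA234.1, 1 point per library, with the replicate number as the symbol. ATCC64974_80420 lies between 42.5 and 321 CPM in ΔaslB, above every ΔaslA library, while ATCC64974_87970 falls to 0.499 CPM in ΔaslB replicate 3 and the 4 adjacent genes are lowest in ΔaslB replicate 1.

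The pair thus shared a level near 0 in ΔaslA and parted in ΔaslB replicate 3. To place this, every gene with a mean at least 5 lower in ΔaslA than in MA234.1 on the log2 CPM scale (32-fold) was put on a scale from 0, the MA234.1 mean, to 1, the ΔaslA mean; the 32-fold limit was set after the values of the pair had been seen. There were 229 such genes. In ΔaslB replicate 3 their median position was 0.94, with a range from 0.38 to 1.22. ATCC64974_80420 was the lowest of all 229 at 0.38 and the single one under 0.5, whereas ATCC64974_87970 stood at 0.98. The scale ends at the ΔaslA mean, the value by which the pair was chosen. For the same ΔaslB level, a lower ΔaslA mean gives a lower position, so the positions are a description and not a test.

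In ΔaslB replicate 1 the 229 genes had a median of 0.76, and 51 of them were under 0.5. ATCC64974_80420 stood at 0.26 there, with 24 genes at lower positions, and ATCC64974_87970 at 0.47, with 46 at lower positions. In replicate 2 all 229 were under 0.5, with a median of 0.06, and the pair stood at 0.07 and 0.03.

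**Figure D2:**
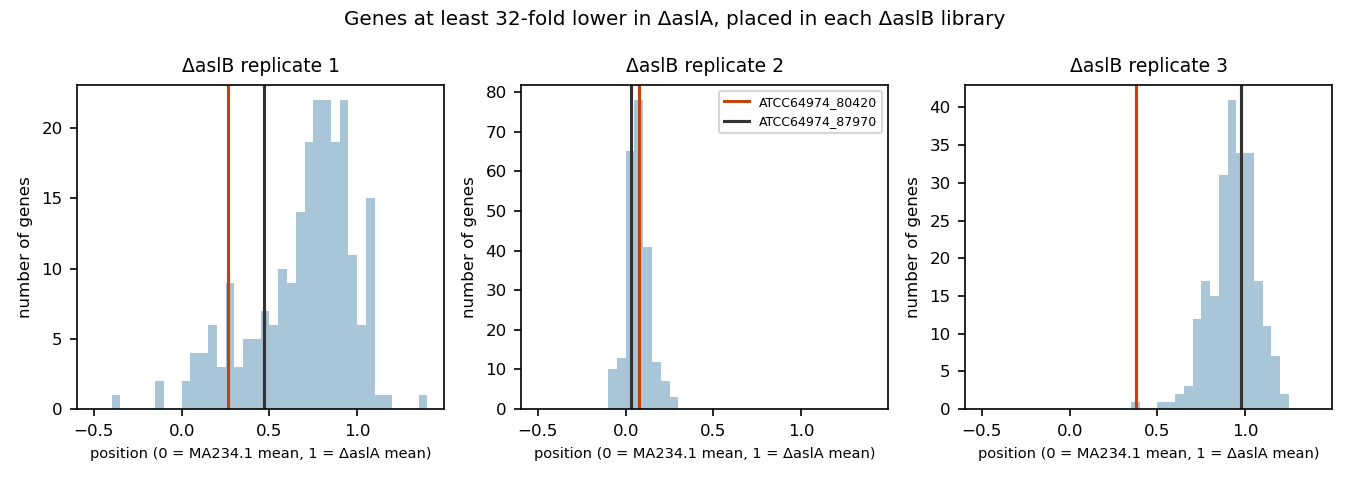
Number of genes by position in each ΔaslB library, for the 229 genes at least 32-fold lower in ΔaslA; 0 on the horizontal axis is the MA234.1 mean and 1 the ΔaslA mean of log2 CPM. Vertical lines mark ATCC64974_80420 and ATCC64974_87970, which lie at 0.38 and 0.98 in ΔaslB replicate 3.

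The genes beside ATCC64974_80420 did not share its loss. The nearest upstream gene, ATCC64974_80410, closest to the sterol synthesis gene erg27, ends 10672 bases away. It was at 20.5, 47.4 and 22.4 CPM in ΔaslA, against 13.6, 16.1 and 12.4 CPM in MA234.1, and rose (log2 fold change 1.10, edgeR adjusted p = 0.0412). The nearest downstream gene, ATCC64974_80430, closest to gpi13 of GPI anchor synthesis, begins 5445 bases away and fell, to 0.976 ± 0.262 CPM in ΔaslA, against 2.75 ± 1.27 CPM in MA234.1 (SD, n = 3 each; log2 fold change -1.50, edgeR adjusted p = 0.0353).

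Of the 20 genes within 10 positions of ATCC64974_80420, all tested, 7 rose and 5 fell in ΔaslA by edgeR. Over all genes tested, 23.6% were called higher and 25% lower. The lowest log2 fold change among the 20 was -3.06, in the transporter gene ATCC64974_80500, against -9.30 for ATCC64974_80420 itself.

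Around ATCC64974_87970 more neighbours were lower. Of the 20 genes within 10 positions 17 were tested, of which 8 fell and 3 rose in ΔaslA. Over all genes tested, 25% fell and 23.6% rose. Within 5 positions 7 of 8 fell and 0 rose, with a median log2 fold change of -2.13. The next gene, ATCC64974_87980, lies 467 bases away on the same strand and is closest to a feruloyl esterase, an enzyme that frees ferulic acid from plant cell walls. It was at 0.444, 0.421 and 0.0777 CPM in ΔaslA, against 6.33, 4.92 and 4.61 CPM in MA234.1 (log2 fold change -4.00, edgeR adjusted p = 0.00808). These ΔaslA values were as low as those of ATCC64974_87970 itself, and the low level in MA234.1 limits the fold change that can be seen. On the other side ATCC64974_87960, closest to the cell surface gene ECM331, fell to 5.0 ± 0.878 CPM in ΔaslA, against 10.7 ± 1.29 CPM in MA234.1 (SD, n = 3 each; edgeR adjusted p = 0.0328).

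No neighbour of either gene reached the fold drop of the pair, though ATCC64974_87980 was as low in ΔaslA CPM as ATCC64974_87970. The log2 fold changes of the pair in ΔaslA were -9.30 and -8.25, and without ΔaslA replicate 2 that of ATCC64974_80420 was -10.7. This and the ranks that follow restate the values by which the pair was chosen. The falls ranked 19 and 43 of 9568 by size of fall, so lower values were found elsewhere in the genome. Within their classes they ranked first: ATCC64974_80420 among 78 tested transcription factors of the C2H2, bZIP and other classes, and ATCC64974_87970 among 354 tested zinc cluster and fungal-specific factors.

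ATCC64974_22400 lies on contig 3, from 3443124 to 3444451 on the plus strand, and carries the same PF11951 domain as ATCC64974_87970. It too has no SwissProt match. The 3 genes before it sit close together. ATCC64974_22370 (3433159 to 3434083, minus strand) encodes a protein with a kinase domain, closest to CDC15 of Saccharomyces cerevisiae, which acts in the exit from mitosis there. ATCC64974_22380 (3435067 to 3435655, plus strand) and ATCC64974_22390 (3435868 to 3436172, minus strand) have no annotated family. Gaps of 983 and 212 bases separate these 3 genes, and a gap of 6951 bases separates them from ATCC64974_22400.

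In ΔaslB replicate 1 ATCC64974_22400 had 3 reads, or 0.216 CPM. The other ΔaslB libraries held 824 reads (50 CPM) in replicate 2 and 272 reads (22.6 CPM) in replicate 3. MA234.1 held 555, 705 and 648 reads, which is 50.9, 52.6 and 49.7 CPM. Replicate 1 of ΔaslB was thus at 0.423% of the MA234.1 libraries (95% exact interval 0.0872 to 1.24%, counting error only), while replicate 2 lay inside the MA234.1 range. Replicate 3 was at 44.2% (38.8 to 50.2%).

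This gene was chosen on ΔaslB replicate 1 and not on a difference between ΔaslA and MA234.1. The ΔaslA libraries stood at 19.3, 13.6 and 24.1 CPM, all below those of MA234.1. The authors' deposited table gives 18.6 FPKM in ΔaslA and 51.4 FPKM in MA234.1. The log2 fold change was -1.43 (SE 1.08, edgeR adjusted p = 0.292) in the fit of all 9 libraries, whose spread includes ΔaslB replicate 1. With the 6 libraries of ΔaslA and MA234.1 alone it was -1.44 (SE 0.20, edgeR adjusted p = 0.000306), in a fit that called 69.3% of the genes it tested. ΔaslB replicate 3 lay inside the ΔaslA range for this gene.

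The 3 adjacent genes were abundant in 8 of the 9 libraries. ATCC64974_22390 ranked 28 of 11187 genes in MA234.1 by FPKM in the authors' deposited table, at 3580 FPKM, ATCC64974_22370 ranked 387 at 602 FPKM, and ATCC64974_22380 ranked 452 at 513 FPKM. None of them lost its reads in ΔaslB replicate 1 as ATCC64974_22400 did.

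For the kinase gene ATCC64974_22370, ΔaslB replicates 1 to 3 stood at 81.5, 611 and 908 CPM, ΔaslA at 848, 510 and 854 CPM, and MA234.1 at 751, 782 and 810 CPM. ATCC64974_22380 stood at 35.0, 216 and 325 CPM in ΔaslB and at 321, 229 and 334 CPM in ΔaslA, against 292, 284 and 304 CPM in MA234.1. For ATCC64974_22390 the values were 135, 785 and 1000 CPM in ΔaslB, 1140, 1100 and 1170 CPM in ΔaslA, and 1060, 1010 and 1050 CPM in MA234.1. In ΔaslB replicate 1 the 3 genes kept similar shares of the MA234.1 libraries: 10.4% for ATCC64974_22370 (95% exact interval 9.81 to 11.1%), 11.9% for ATCC64974_22380 (10.9 to 13.1%) and 13.0% for ATCC64974_22390 (12.4 to 13.6%).

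The 4 genes were not chosen on a difference between ΔaslA and MA234.1, so this comparison is given as a test. It is not fully free of the choice. A drop in ΔaslB replicate 1 is seen against the other libraries, ΔaslA among them, so genes low in ΔaslA were less likely to be chosen. The fit of all 9 libraries takes its spread in part from ΔaslB replicate 1, the library that chose the genes. Lack of a call in it therefore does not show that a gene was alike in ΔaslA and MA234.1. With all 9 libraries, edgeR called 0 of the 4 between ΔaslA and MA234.1, where it called 48.7% of all genes tested. At an unadjusted p under 0.05 it was 0 of the 4, against 5446 of all 9568 genes tested. DESeq2 called 0 of the 4, against 4851 genes in all. The log2 fold changes were -0.08 for ATCC64974_22370 (edgeR adjusted p = 0.925), 0.01 for ATCC64974_22380 (0.993) and 0.13 for ATCC64974_22390 (0.866). Their edgeR SEs with all 9 libraries were 0.66, 0.61 and 0.56. With the 6 libraries of ΔaslA and MA234.1 alone, the SEs were 0.19, 0.14 and 0.08 in the same order. The log2 fold changes were then -0.09, 0.002 and 0.12 (edgeR adjusted p = 0.688, 0.992 and 0.199). ATCC64974_22400 was called in that fit (edgeR adjusted p = 0.000306), as were 69.3% of the genes it tested. Libraries of ΔaslA and MA234.1 did not overlap in 2 of the 4, as in 74.7% of all genes tested. ATCC64974_22390 was higher in ΔaslA without overlap, as were 36.8% of all genes, and ATCC64974_22400 was lower without overlap, as were 37.9%.

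The other ΔaslB libraries give a further test, with the same limit, since a drop in replicate 1 is seen against them too. Without ΔaslB replicate 1 the log2 fold change of ΔaslB over MA234.1 was -0.04 (SE 0.31, edgeR adjusted p = 0.951) for ATCC64974_22370, -0.11 (SE 0.26, edgeR adjusted p = 0.797) for ATCC64974_22380 and -0.22 (SE 0.22, edgeR adjusted p = 0.565) for ATCC64974_22390. For ATCC64974_22400 it was -0.49 (SE 0.37, edgeR adjusted p = 0.449), with its 2 libraries at 50 and 22.6 CPM. This fit called 0% of the genes it tested. With replicate 1, which chose the genes, the log2 fold changes of the 4 in order were -0.55, -0.61, -0.70 and -1.07, given without a test. The tests without it do not show that the genes were alike in the strains, since the remaining ΔaslB libraries differ from each other.

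The genes directly beside the run had smaller drops or none in ΔaslB replicate 1. ATCC64974_22360, a gene with a chromo domain that ends 725 bases before the run, was at 64.9 CPM in ΔaslB replicate 1, the lowest of its 9 values and 72.4% of the lowest among the other 8. ATCC64974_22350, the next gene outward, is expressed at a low level: it had 0.144 CPM in ΔaslB replicate 1, or 26.8% of its lowest value of 0.537 CPM elsewhere. ATCC64974_22410, closest to a kinesin light chain and 7583 bases beyond ATCC64974_22400, was at 20.2 CPM there, or 115%. Among the 13 neighbours within 10 positions with at least 1 CPM in each of the other 8 libraries, none was below 64.9% of its lowest value elsewhere, against 16.0, 16.2 and 17.2% for the 3 adjacent genes and 1.59% for ATCC64974_22400. Of the 19 neighbours tested, 3 fell and 1 rose in ΔaslA, where 25% of all genes tested fell and 23.6% rose.

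**Figure D3:**
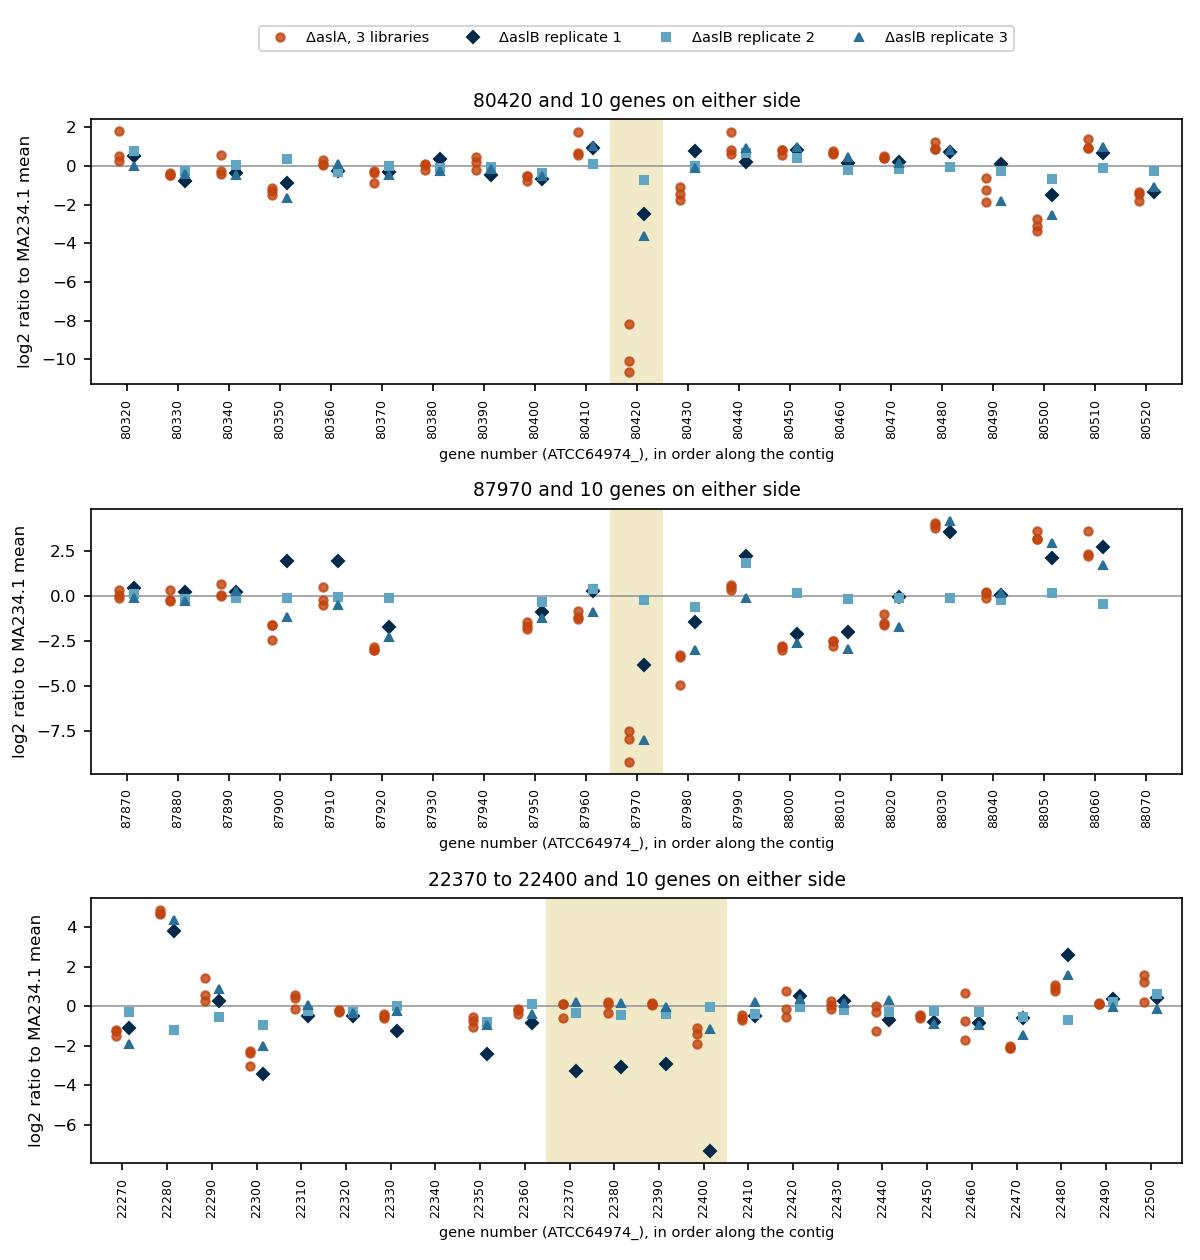
Log2 ratio of each library to the MA234.1 mean (CPM + 0.1) along 3 stretches of contig, with genes in order and 10 genes on either side of the shaded ones; genes that did not pass the low-count filter are blank. ATCC64974_80420 and ATCC64974_87970 have the lowest ΔaslA ratios of their windows, while in ΔaslB replicate 1 a run of 4 adjacent genes is low.

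The same question was put to every gene of the table: which genes had at least 1 CPM in all other libraries and at most 1 in 10 of the lowest of these in every library of a strain. For ΔaslA 8180 genes could have qualified and 2 did (0.0244%). ATCC64974_80420, which was chosen on its low ΔaslA counts, had the larger drop. It was 24.5-fold between its highest ΔaslA library and ΔaslB replicate 3, the lowest of the other 6. The second was ATCC64974_96160 on contig 17, without annotation, at 0.0739, 0.105 and 0.0777 CPM in ΔaslA and at 1.33 CPM or more elsewhere. Just outside the limit came the exo-inulinase gene inuE (ATCC64974_34960), at most 0.887 CPM in ΔaslA and 5.90 CPM in the lowest other library. ATCC64974_87970 could not qualify, because ΔaslB replicate 3 held 0.499 CPM.

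For ΔaslB as a strain 0 of 8093 genes qualified, and for MA234.1 0 of 8069. Taken 1 library at a time, ΔaslB replicate 1 had 9 of 8027 genes (0.112%), ΔaslA replicate 2 had 2, MA234.1 replicate 1 had 1 and each of the other 6 libraries had 0. ATCC64974_22400 was first of the 9, 62.9-fold below its lowest value elsewhere, which restates the drop by which it was chosen. The next 4 were ATCC64974_36040 (35.7-fold), ATCC64974_43750 of the metallo-β-lactamase family (28.8-fold), ATCC64974_96710 (22-fold) and ATCC64974_75320 (18.5-fold), which lie on 4 other contigs. Just inside the limit was ATCC64974_59580, at 8.58% of its lowest value elsewhere, and just outside was ATCC64974_33330, at 10.9%. The 3 genes adjacent to ATCC64974_22400 ranked 12, 13 and lower.

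**Figure D4:**
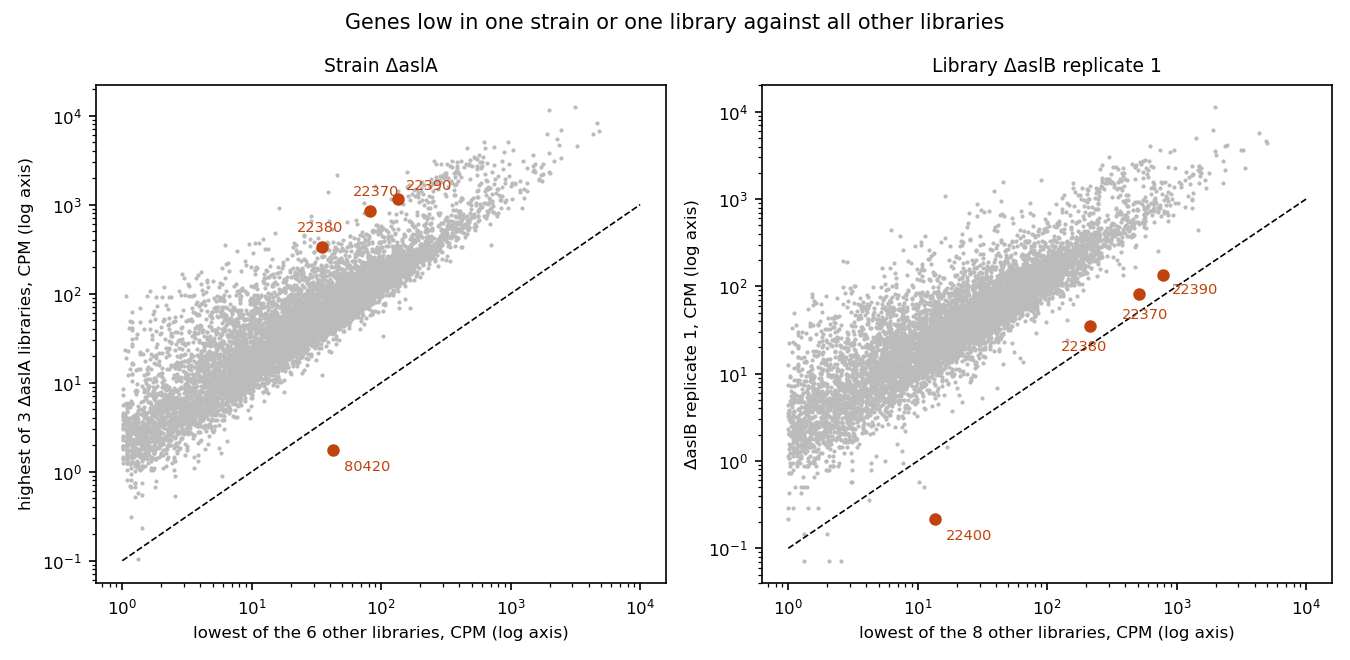
Each point is a gene with at least 1 CPM in all other libraries; the horizontal axis is its lowest CPM in these and the vertical axis its highest CPM in the 3 ΔaslA libraries (left) or its CPM in ΔaslB replicate 1 (right), both on log axes, with the dashed line at 1 in 10. ATCC64974_80420 lies 24.5-fold down on the left and ATCC64974_22400 62.9-fold on the right, while ATCC64974_22370, ATCC64974_22380 and ATCC64974_22390 lie just above the line on the right and far above it on the left.

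The genes most like each member over the 9 libraries were taken by Pearson's r of log2 CPM, as a description, since the libraries fall into strains. These libraries hold the values that chose the members, ΔaslA for the pair and ΔaslB replicate 1 for the 4 adjacent genes. The correlations in part restate that choice. For ATCC64974_80420 they were ATCC64974_96160 (r = 0.982), ATCC64974_111090 (r = 0.974), with an alpha/beta hydrolase fold, and ATCC64974_14390 (r = 0.973), and 33 genes had r over 0.95. For ATCC64974_87970 the number was 766, and the top 3 were ATCC64974_17950 (closest to NMRAL1), the transporter gene ATCC64974_33760 and ATCC64974_19030, at r = 0.997 to 0.998. The pair correlated with each other at r = 0.904.

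ATCC64974_22370 and ATCC64974_22380 were each other's closest match of all 9568 genes (r = 0.996), over libraries that include ΔaslB replicate 1, which chose both. ATCC64974_57530, closest to a phosphoketolase, which splits a sugar phosphate to give acetyl phosphate, was among the top 3 for all 3 adjacent genes. It stood at 9.73 CPM in ΔaslB replicate 1 and at 26.9 to 35.1 CPM in the other 8 libraries. The other genes so named were ATCC64974_42900 (ABC transporter) for ATCC64974_22370 and ATCC64974_51370 (closest to TDA6) for ATCC64974_22390. ATCC64974_22400 was most like ATCC64974_59580 (r = 0.993), closest to a fungal solanapyrone synthase, ATCC64974_79300 and ATCC64974_69080. With Spearman's rho instead, 0 of the 18 named genes were among the top 3.

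The 3 transcription factor genes were also set against the classes they belong to. Of 354 tested zinc cluster and fungal-specific factors, ATCC64974_87970 and ATCC64974_22400 included, 144 fell (40.7%) and 18 rose (5.08%) by edgeR, with a median log2 fold change of -0.73, against 0.00 over all genes tested, of which 25% fell and 23.6% rose. Of 78 other transcription factors, ATCC64974_80420 included, 19 fell (24.4%) and 8 rose (10.3%), with a median of -0.14, so their share of falls was near that of all genes. Further falls among the fungal-specific factors included ATCC64974_37070, closest to the proline utilization activator PUT3 of yeast, at 0.592, 0.263 and 1.01 CPM in ΔaslA, against 40.3, 36.9 and 40.6 CPM in MA234.1. ATCC64974_82110, closest to adv-1 of Neurospora crassa, was at 0.730 ± 0.313 CPM in ΔaslA and 21.8 ± 4.75 CPM in MA234.1 (SD, n = 3 each; log2 fold change -4.92, edgeR adjusted p = 0.00896).

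Of 11 tested regulators around FlbA, 2 rose and 2 fell in ΔaslA (18.2% each), no larger a share than among all genes. abaA (ATCC64974_20070), a regulator of conidiophore development, and fluG (ATCC64974_2970), which acts early in the induction of conidiation, rose by 3.71 and 2.43 on the log2 scale. In mycelium labelled vegetative, abaA was at 18.4, 21.7 and 16.9 CPM in ΔaslA, against 0.825, 2.01 and 1.46 CPM in MA234.1. stuA (ATCC64974_38800), which shapes conidiophores, fell by 1.99, and the brlA-like gene ATCC64974_72370 fell by 1.28 (edgeR adjusted p = 0.0105). Another gene annotated as brlA, ATCC64974_15030, had no more than 1.76 CPM in any library and was not called (log2 fold change -0.62, edgeR adjusted p = 0.351). flbA (ATCC64974_61450) had 24.7, 21.4 and 28.2 CPM in ΔaslA libraries and 25.9, 31.2 and 16.9 CPM in ΔaslB libraries, against 19.8, 24.0 and 22.6 CPM in MA234.1, and was not called (ΔaslA over MA234.1, edgeR adjusted p = 0.625).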

How the data were processed

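The tools named in the submitters' processing notes are HISAT2 2.2.1, featureCounts, Subread and Cuffdiff, with no role, setting or strand mode. The genome build is not stated in these sources. Libraries came from a stranded poly(A) kit, per the labels. The authors' deposited counts are whole numbers per gene and library, not normalized. Their second deposited table, the authors' summary by strain, holds FPKM for each strain with replicates combined, log2 ratios and q-values for pairs of strains, and the positions, families and closest SwissProt proteins used here. Its log2 ratios run from the second strain over the first, and its ratios and q-values are not printed. Reads between neighbouring or overlapping genes cannot be assigned without the strand mode. The reference table covers another strain, and 0 of 11187 identifiers matched, so no sequence is shown.

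For testing, edgeR 4.0.16 (R 4.3.3) was run on the counts in its quasi-likelihood form: TMM scaling, edgeR's filter by group (minimum count 10), 1 fit of all 9 libraries with strain as the only term, and Benjamini-Hochberg adjustment over 9568 genes, called under 0.05. The 3 comparisons share libraries. CPM uses TMM-scaled library sizes, and log2 CPM a prior count of 2. Exact conditional binomial intervals cover counting error only; 3 counts correspond to 0.158 to 0.275 CPM per library. Replicate pairs differed by more than sampling noise (chi-square per degree of freedom 2.36 to 643). The test was checked on simulated data in which the replicates of a group were drawn alike. That check does not cover replicates that differ as those of ΔaslB do.

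The members, the lists and the rules were chosen with earlier results of these data known. Named were the members, their immediate neighbours, up to 10 genes low in a strain or 5 in a library, the 3 most alike genes per member, flbA and called list members. Other genes named were chosen after their values were seen. Alternatives were RLE size factors, total counts, DESeq2 1.42.0, no filter, a minimum count of 50, only 6 libraries, a replicate block and each library left out. Figures were drawn with matplotlib 3.10.9.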

Additional observations from a re-analysis of the deposited data

Results flagged for a closer look

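ATCC64974_22390 stood above the MA234.1 range in all 3 ΔaslA libraries and below it in all 3 ΔaslB libraries. ΔaslA over ΔaslB gave a log2 fold change of 0.82, which rests on ΔaslB replicate 1, the library on which the gene was chosen, and is given without a test. Without that library it was 0.35. ΔaslB replicate 3, at 96.5% of the MA234.1 libraries (95% exact interval 94.5 to 98.5%), was the nearest of the ΔaslB libraries to them.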

How the results depend on the processing

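Against 4657 genes called between ΔaslA and MA234.1, leaving out 1 library gave 3078 (without MA234.1 replicate 3) to 5901 (without ΔaslB replicate 2), and the other settings stayed within 1.5 times. Between ΔaslB and MA234.1 edgeR called 0 genes (2943 at an unadjusted p under 0.05); total counts gave 783 and DESeq2 1796, and leaving out 1 library gave 0 to 5102, the highest without ΔaslB replicate 2. Between ΔaslA and ΔaslB it called 0 (1651 unadjusted), DESeq2 553, and 0 to 1282 with 1 library left out. Deviations from the strain means showed no sign of pairing by replicate number (correlations -0.058 to 0.038). The large differences between replicates, above all in ΔaslB, mean that this cannot exclude shared handling. With the replicate block the 3 counts were 4186, 0 and 0.

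Among the members, ATCC64974_22380 in ΔaslA over MA234.1 changed sign around 0, at -0.015 with RLE factors and with DESeq2, -0.0016 with total counts, -0.036 with the stricter filter and -0.0519 to 0.165 with 1 library left out; ATCC64974_22370 ran from -0.189 to 0.129 with 1 library left out. With 1 library left out ATCC64974_80420 in ΔaslA ran from -10.7 to -8.89, and ATCC64974_22390 in ΔaslA over ΔaslB from 0.347 to 1.31. With the replicate block ATCC64974_87970 in ΔaslA was at -9.14. The test of ATCC64974_22400 in ΔaslA passed only with 6 libraries (adjusted p 0.000306 to 0.478 over the alternatives), and those of ATCC64974_80420 and ATCC64974_87970 in ΔaslB only without ΔaslB replicate 2 (0.00113 to 0.362 and 0.00157 to 0.604). The cause was not tested.

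The scan found 1 gene for ΔaslA with at least 5 CPM elsewhere and 5 genes with a 4-fold drop, in place of 2, and for ΔaslB replicate 1 it found 4 and 32 in place of 9. Of the 18 genes named as most alike, 0 were kept with Spearman's rho. Neighbours found by the scans stayed at 0 in each window. In the window of ATCC64974_87970, the next gene ATCC64974_87980 could not qualify for ΔaslA, because ΔaslB replicate 3 held 0.582 CPM of it. Counts of 2 to 14 reads limit the lowest levels.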

Other observations

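A pair of the 9 genes on the list of ΔaslB replicate 1 had higher CPM in every ΔaslA library than in any MA234.1 library. Over all genes tested this held for 36.8%, so the pair does not set the list apart. ATCC64974_83040, closest to the Aspergillus fumigatus allergen Asp f 4, had 0.576 CPM in ΔaslB replicate 1, with 18.8 and 96.4 CPM in the other ΔaslB libraries. It stood at 94.8, 121 and 97.2 CPM in ΔaslA, against 15.2, 10.1 and 10.5 CPM in MA234.1. ATCC64974_20910, without a known function, had 0.360, 4.43 and 41.5 CPM in the ΔaslB libraries and 27.7, 35.9 and 25.3 CPM in those of ΔaslA, against 4.22, 5.74 and 5.53 CPM in those of MA234.1.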
